A study of Mus musculus with 27 samples.

Results

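The libraries described here come from the uninjected, contralateral cortex of 5xFAD mice whose opposite hemisphere had received the retromer chaperone R33 or its vehicle. Members were chosen by their labels, drug treatment R33 or vehicle together with the uninjected hemisphere. That gave 4 R33 libraries (mice K, O, N and AD) and 4 vehicle libraries (mice J, M, L and AH), 8 of the 27 libraries of the series, with 1 library per mouse. The study's methods give 6 mice per group, against 4 and 4 here. The comparison asks what differed in the hemisphere that the needle did not enter. No gene passed the test adjusted over all genes. The groups overlapped in RNA for the retromer subunits, while Coch, Mat2b and Ddit4l were higher in all 4 R33 libraries than in any vehicle library. Over all tested genes, 1.11% lay wholly above in this way and 0.678% wholly below. Several clock genes were higher, and the NMDA receptor subunit Grin2b and several calcium channel genes lower in R33 libraries, each with an unadjusted p under 0.05 and to a degree that depended on single mice. With the trend of expression on gene length removed, Grin2b went from a log2 fold change of -0.68 to -0.36. The lower genes of the calcium channel and release list went from 5 to 2 of 23, and its median from -0.13 to -0.02. Of the calls lost, Cacna1h went from -0.51 to -0.42 and Cacna1c from -0.27 to -0.06. Before that step 1.22% of all tested genes were lower.

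All mice were female 5xFAD animals on a C57BL6 background, aged 16 weeks, and no wild-type mice entered the comparison. The 5xFAD transgenes, driven by the neuronal Thy1 promoter, include human APP with 3 familial mutations, so the mice form amyloid early, and they carry no retromer mutation. R33 was injected at 10 mM in a volume of 500 nL, in a solution of cyclodextrin and 3% DMSO, into the lateral parietal association cortex of the other hemisphere. Vehicle mice received the same solution without the compound, and about 1 mm3 of cortex was taken from each hemisphere 24 h later. R33 and the related compound R55 are known here by their code names.

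Retromer is a coat complex on endosomes, in which VPS35 holds VPS29 and a VPS26 subunit and picks cargo for return to the Golgi or to the cell surface. In neurons its cargo includes receptors of the VPS10 family, glutamate receptors and the amyloid precursor protein, so its loss changes where APP meets its secretases. R33 and R55 were selected as chaperones that bind at the VPS35 and VPS29 interface and raise the amount of the assembled protein, an effect that RNA levels do not measure.

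RNA levels were deposited as FPKM, the fragments on a gene scaled by its length and by the library's total of fragments on genes. The fragments behind the values numbered 26564666, 15932197, 38077028 and 23965453 in vehicle mice J, M, L and AH. R33 mice K, O, N and AD had 32883912, 26900716, 35571021 and 27441309. Values below are always given in this order of mice. Of 26264 genes in the table, 12976 reached a mean of 1 FPKM and were tested.

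The tissue carried the markers of cortex in every library. The 29 tested genes of a cortical excitatory neuron list summed to 1112, 1191, 1418 and 1192 FPKM in the vehicle libraries, and to 1198, 1196, 1215 and 1233 FPKM in the R33 libraries. The transporter Slc17a7 was the most abundant of them, and no gene of that list was at 0 in all 8 libraries. The interneuron list summed to 1177, 1259, 1503 and 1548 FPKM after vehicle and to 1304, 1421, 1349 and 1752 FPKM after R33. The groups overlapped on both lists.

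Markers of structures next to the cortex varied between single libraries. Ttr, the transthyretin that choroid plexus secretes, measured 1109, 12.5, 18.3 and 6.39 FPKM in the vehicle libraries and 706, 401, 10.2 and 7.85 FPKM in the R33 libraries. Vehicle J, R33 K and R33 O were high and the other 5 libraries low, so the groups overlapped almost fully (log2 fold change 0.93, SE 1.69). Its log2 fold change ran from -0.17 without R33 K to 2.55 without vehicle J. The whole choroid plexus and ependyma list, with Ttr its most abundant gene and no marker at 0 in all 8 libraries, summed to 1171, 29.1, 24 and 14.8 FPKM and to 740, 436, 26.8 and 17.8 FPKM. The part of this tissue in any other result was not tested. Fabp7, a lipid-binding protein of radial glia and astrocytes, was likewise high in vehicle J, at 109 FPKM against 20.3 to 29.5 FPKM in the other 7 libraries. J also had the lowest median correlation with the other 7 libraries over tested genes, 0.9732, where the other libraries lay between 0.9812 and 0.9885.

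**Figure D1:**
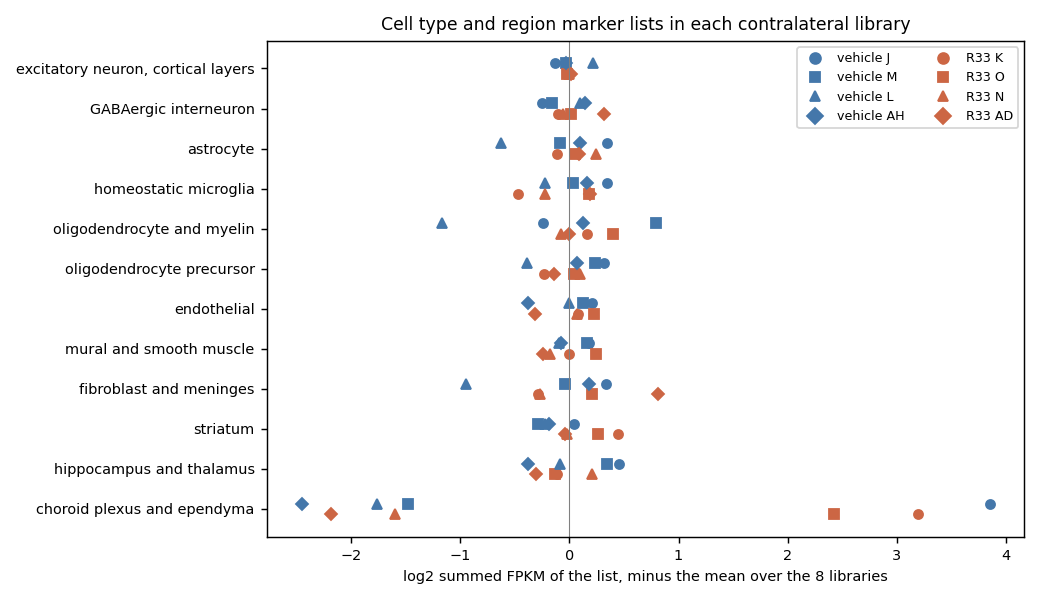
Summed FPKM of 12 cell type and region marker lists in each contralateral library, as log2 minus the mean of the 8 libraries (horizontal axis), with vehicle in blue, R33 in orange and 1 symbol per mouse. The lists of cortical neurons lie close together, while the choroid plexus list splits vehicle J, R33 K and R33 O from the other 5 libraries.

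No gene differed between R33 and vehicle once the number of tests was counted. With limma and Benjamini-Hochberg adjustment over the 12976 genes, 0 genes (0%) had an adjusted p under 0.05, and the smallest adjusted p was 0.9997. At an unadjusted p under 0.05 there were 384 genes (2.96%), 226 of them higher after R33 (1.74%) and 158 lower (1.22%). All 4 R33 libraries lay above all 4 vehicle libraries for 144 genes (1.11%) and below them for 88 genes (0.678%). For a single gene, complete separation of 4 from 4 libraries has an exact two-sided permutation p of 0.0286, over 70 possible splits. The limma voom test on recovered fragments also called 0 genes, with 355 at unadjusted p under 0.05. A gene that is said below to be higher or lower is therefore described by its values, and did not pass the adjusted test.

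Single libraries moved the unadjusted count. Without vehicle J it was 1000 genes, 761 higher and 239 lower, and without R33 K or R33 O it was 214 and 239 genes. Without vehicle J, 149 of the 226 higher and 110 of the 158 lower genes remained among those at unadjusted p under 0.05. Rescaling the libraries by the median of gene ratios gave 179 higher and 187 lower genes, or 48.9% higher in place of 58.9%. No library's omission brought a gene under an adjusted p of 0.05, with the smallest adjusted p between 0.469 and 0.9999 by limma with Benjamini-Hochberg adjustment.

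The median log2 fold change over all tested genes was 0.03, the median SE was 0.12, and the median 95% interval reached 0.25 to either side. For 12712 genes, 98.0% of those tested, the interval lay within 1 unit of 0 on this scale, log2 of FPKM with 1 added. The scale shrinks ratios of genes near 1 FPKM, so for them 1 unit is more than a doubling. Only 4 genes had a log2 fold change beyond 1 in either direction, Gm45623, Scarna2 and Mir377 among them.

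**Figure D2:**
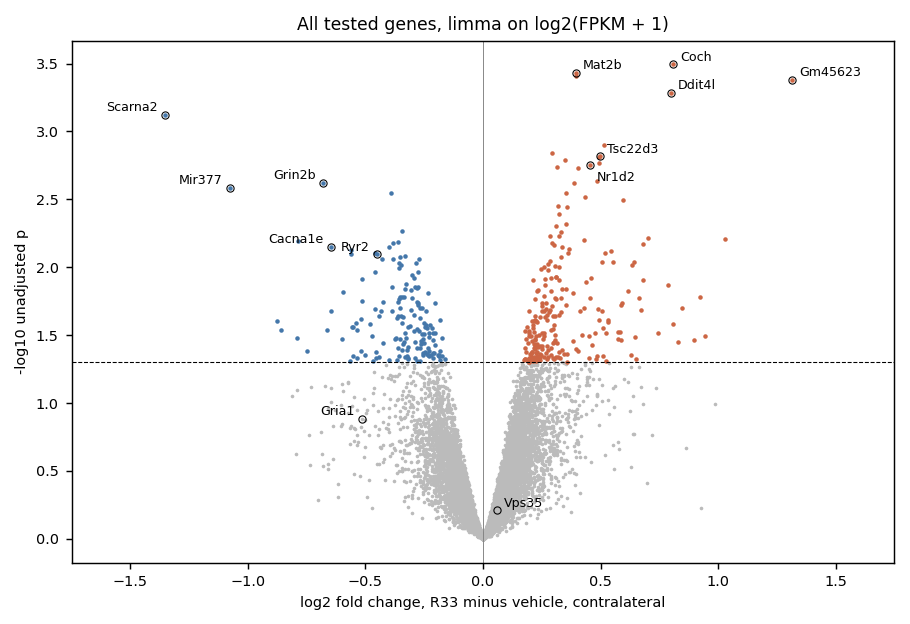
Log2 fold change of R33 minus vehicle in the contralateral cortex (horizontal axis) against the -log10 unadjusted p (vertical axis) for the 12976 tested genes, with 226 higher genes in orange and 158 lower genes in blue above the dashed line at 0.05. Named genes are circled; Vps35 lies near the centre, and Coch and Mat2b lie highest.

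RNA for the retromer itself overlapped between the groups. Vps35, the cargo-binding backbone (chr8:85986024-86026431 in GRCm39), measured 65.7, 54, 58.2 and 52.4 FPKM after vehicle and 63.3, 56.6, 67.8 and 52.7 FPKM after R33. The highest and lowest libraries of both groups were interleaved, with a log2 fold change of 0.06 (SE 0.12, 95% interval -0.19 to 0.31). Vps29, the subunit that caps VPS35 at the interface where the chaperones bind, measured 39.5, 32.5, 31.7 and 27.2 FPKM and 34.5, 35.5, 41.3 and 32 FPKM. Vehicle J and R33 N were highest and vehicle AH lowest, so the groups overlapped (log2 fold change 0.13, 95% interval -0.12 to 0.39). Vps26a, which links the complex to sorting nexins, measured 25, 20.4, 22.2 and 21.2 FPKM and 23.9, 22.8, 23.4 and 21.7 FPKM, again overlapping, with a log2 fold change of 0.05 (95% interval -0.15 to 0.25). Vps26b, its paralogue in brain, differed least, with a log2 fold change of 0.00 (95% interval -0.15 to 0.16). Over these 4 genes the lowest bound of an interval was -0.19 (Vps35) and the highest 0.39 (Vps29). None of the 5 core genes, and none of 15 sorting nexin and WASH complex partners, was at unadjusted p under 0.05. Their median log2 fold changes were 0.05 and 0.05, against 0.03 over all genes. Without vehicle J 1 of the 15 was higher and the core median was 0.10, and without R33 N the core median was 0.01. With vehicle J and R33 AD both left out, a pair chosen after seeing the data, 1 gene of each list was higher.

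A list of sorting and endocytic receptors had a negative median. Of 12 tested VPS10 and LDL receptor family genes, 0 were higher and 2 lower at unadjusted p under 0.05, Lrp1 and Lrp1b (1.74% and 1.22% of all tested genes), with a median log2 fold change of -0.16 against 0.03 over all genes. Lrp1, a large endocytic receptor that takes up APOE and APP, measured 26.9, 33.8, 37.7 and 37.9 FPKM after vehicle and 23.3, 26.4, 30.2 and 19.6 FPKM after R33. R33 AD was lowest and vehicle J lowest of its group, below R33 N, and the log2 fold change was -0.44 (SE 0.17). Sorl1, the sorting receptor that carries APP together with retromer, measured 24, 46.1, 54.2 and 39.4 FPKM and 33.2, 31, 33.9 and 25 FPKM. Vehicle J was the lowest of all 8 libraries and vehicle L the highest, so the groups overlapped widely (log2 fold change -0.35, SE 0.21). The 2 lower genes of this list became 5 without vehicle J, 3 without R33 O and 1 without R33 K, vehicle L or vehicle AH. There were 0 with the length trend described below removed (median -0.06) and 0 over mice with 1-letter labels. The median ran from -0.21 without vehicle AH to -0.07 without R33 AD. APP and its secretases and modifiers, 17 tested genes, had 0 genes at unadjusted p under 0.05 and a median of -0.00. Without R33 N or vehicle AH 1 of them was lower, with medians of 0.02 and 0.02.

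The VPS13 proteins and the related ATG2 proteins are long bridges that pass lipids between organelles at contact sites. Of their 6 tested genes 2 were lower at unadjusted p under 0.05, Vps13c and Vps13d, and the median was -0.18 (-0.11 without R33 AD). The share over all tested genes was 1.22%, and 101 of the 1297 longest genes were lower, while the median length of this list was 12421 bp. Vps13c measured 4.29, 4.88, 4.32 and 4.44 FPKM after vehicle and 3.30, 2.86, 4.28 and 2.08 FPKM after R33. Every R33 library lay below every vehicle library, although R33 N and vehicle J differed by little (log2 fold change -0.43, SE 0.17). Vps13d, needed for mitochondrial clearance, measured 6.68, 8.17, 8.46 and 8.21 FPKM and 5.96, 5.86, 7.22 and 4.81 FPKM. Vehicle J lay among the R33 values and below R33 N, with a log2 fold change of -0.36 (SE 0.12). Vps13a and Vps13b had log2 fold changes of -0.11 (SE 0.13) and -0.21 (SE 0.13). These transcripts are among the longest measured, and with the length trend described below removed from each library, 0 of the 6 were at unadjusted p under 0.05 and the median was -0.02. Without R33 AD 1 of the 6 was, and over mice with 1-letter labels 0 were.

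The 5 genes with the smallest unadjusted p, Coch, Mat2b, Fzd10os, Gm45623 and Ddit4l, were higher after R33. Coch, which encodes the extracellular matrix protein cochlin (chr12:51639894-51653316 in GRCm39), measured 9.48, 5.92, 12.5 and 10.7 FPKM in the vehicle libraries and 19.6, 17.7, 15.6 and 15.9 FPKM in the R33 libraries. The groups did not overlap, and vehicle M was lowest and R33 K highest, for a log2 fold change of 0.81 (SE 0.17, 95% interval 0.44 to 1.17). Mat2b, the regulatory subunit of the enzyme that makes S-adenosylmethionine (chr11:40570130-40586036), measured 59.7, 51.9, 56.3 and 61.9 FPKM and 81.7, 74.9, 76.6 and 70.1 FPKM. The lowest R33 library, AD, stood above the highest vehicle library, AH (log2 fold change 0.40, SE 0.08). Ddit4l, an inhibitor of mTOR signalling induced by stress (chr3:137327282-137334229), measured 9.34, 11, 10.9 and 12 FPKM and 25.6, 20.2, 15.8 and 17.6 FPKM. Here too the groups were apart, with R33 K and O highest (log2 fold change 0.80, SE 0.18).

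Phyh, the peroxisomal enzyme that starts the breakdown of phytanic acid, measured 62.4, 58.6, 57.8 and 60.4 FPKM after vehicle and 71, 70.7, 71.7 and 81.1 FPKM after R33. All R33 libraries were above all vehicle libraries, 3 of them within about 1 FPKM of each other and AD higher (log2 fold change 0.29, SE 0.07). Gm45623, a gene model of unknown function that the annotation used here does not place, measured 2.10, 1.31, 1.12 and 1.91 FPKM and 6.44, 7.20, 6.44 and 2.73 FPKM. The groups did not overlap, with R33 AD close to vehicle J and the other 3 R33 libraries well above, and a log2 fold change of 1.31 (SE 0.29). With limma and Benjamini-Hochberg adjustment, the adjusted p of Coch, Mat2b, Ddit4l, Phyh and Gm45623 was 0.9997. Fzd10os, named for the strand opposite Fzd10, lay between 1.06 and 1.27 FPKM after vehicle and between 1.56 and 2.17 FPKM after R33, low but without overlap (log2 fold change 0.40, SE 0.09, adjusted p 0.9997 by limma with Benjamini-Hochberg).

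**Figure D3:**
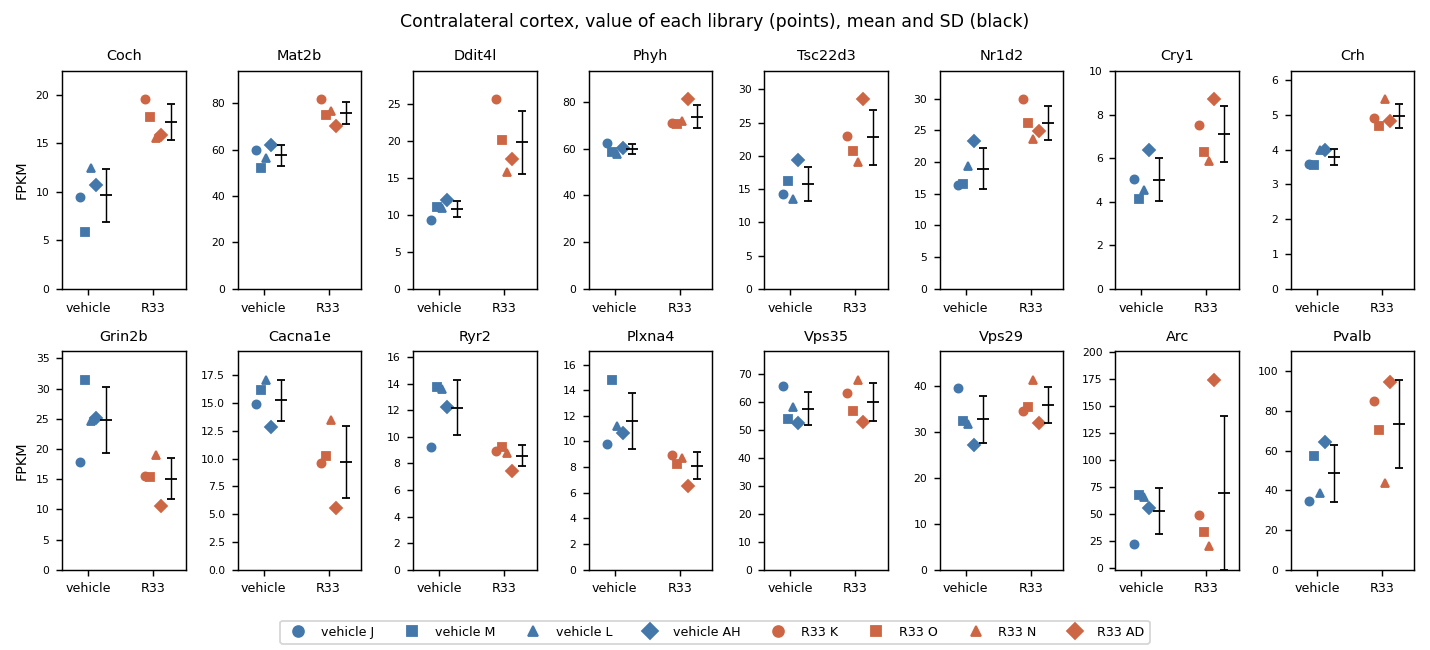
FPKM of 16 genes in each contralateral library, vehicle in blue and R33 in orange with 1 symbol per mouse, and the mean and SD of each group in black. Coch, Mat2b, Ddit4l, Phyh and Nr1d2 show no overlap between groups, whereas Vps35, Vps29 and Arc overlap.

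Of 19 tested circadian clock genes, 4 were higher and 0 lower at unadjusted p under 0.05 (1.74% and 1.22% of all tested genes), with a median log2 fold change of 0.19 against 0.03 over all genes. Nr1d2, the haem-binding repressor REV-ERB beta, measured 16.4, 16.6, 19.4 and 23.3 FPKM after vehicle and 29.9, 26.1, 23.7 and 24.9 FPKM after R33. The groups met but did not cross, vehicle AH lying just under R33 N (log2 fold change 0.45, SE 0.12). Cry1, a repressor of the core loop, measured 5.04, 4.14, 4.53 and 6.38 FPKM and 7.55, 6.30, 5.88 and 8.72 FPKM. Vehicle AH exceeded R33 O and N, so this gene overlapped (log2 fold change 0.43, SE 0.13). Hlf, a clock-output transcription factor, measured 33.3, 36.6, 49.7 and 63.3 FPKM and 74.5, 62.3, 50.4 and 66.8 FPKM. Vehicle J and M were lowest, while vehicle AH lay among the R33 libraries (log2 fold change 0.50, SE 0.20).

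Rorb, a nuclear receptor of the clock that also marks layer 4 neurons, measured 3.71, 4.42, 3.85 and 5.61 FPKM and 8.76, 9.57, 5.54 and 6.34 FPKM, with R33 K and O high and R33 N at the level of vehicle AH (log2 fold change 0.65, SE 0.30). The summed list measured 307, 342, 451 and 534 FPKM after vehicle and 491, 470, 425 and 524 FPKM after R33, so the spread within the vehicle group was wider than the distance between the groups. The count of 4 depended on the mice kept. It was 2 without vehicle J, vehicle M or R33 AD and 9 without vehicle AH, and the median was 0.03 without J and 0.36 without AH. The hour of dissection is not given in the sources used here, and its part in these values was not tested.

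The promoters of the clock genes are shown because these 4 genes lay on the same side. All 4 matched the RefSeq table, with 5 windows of 250 bases upstream of a start site in GRCm38.p6. The E-box CACGTG, bound by CLOCK and BMAL1, was found in Cry1 (chr10:85185055-85185304, minus strand), and the half-site AGGTCA, bound by ROR and REV-ERB receptors, in Nr1d2 (chr14:18239107-18239356, minus strand). Both strands were searched and the match is in capitals. Neither motif was in the windows of Hlf or Rorb. Over all 32851 windows of the same length, 6.02% held CACGTG and 14% held AGGTCA.
Cry1: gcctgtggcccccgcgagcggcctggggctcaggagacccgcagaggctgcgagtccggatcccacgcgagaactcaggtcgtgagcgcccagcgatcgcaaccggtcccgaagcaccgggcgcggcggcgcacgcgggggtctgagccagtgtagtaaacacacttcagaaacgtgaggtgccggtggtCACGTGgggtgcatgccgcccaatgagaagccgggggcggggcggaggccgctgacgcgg
Nr1d2: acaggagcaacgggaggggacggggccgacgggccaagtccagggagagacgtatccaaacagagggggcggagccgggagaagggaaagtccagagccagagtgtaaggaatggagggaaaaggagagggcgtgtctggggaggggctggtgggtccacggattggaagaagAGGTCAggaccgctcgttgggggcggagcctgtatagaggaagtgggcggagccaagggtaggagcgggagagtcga

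Tsc22d3, the glucocorticoid-induced leucine zipper GILZ, measured 14.2, 16.2, 13.6 and 19.3 FPKM after vehicle and 23, 20.8, 19 and 28.5 FPKM after R33. R33 AD was highest, and R33 N lay just under vehicle AH, the highest of its group (log2 fold change 0.50, SE 0.13). It was the only one of 16 tested glucocorticoid-responsive genes at unadjusted p under 0.05, and the median of that list was 0.08. Over all tested genes 1.74% were higher and 1.22% lower at that threshold. Without vehicle J, 2 were higher and 1 lower, and without R33 N 1 was lower. The heat shock and unfolded protein list had 1 of 24, Herpud1, a component of endoplasmic reticulum-associated degradation, with a log2 fold change of 0.32 (SE 0.09), and a median of 0.04. That count was 3 without vehicle J and 2 without R33 N. The 3 metallothioneins had a median of 0.07 and 0 genes at that threshold, and the median was -0.06 without vehicle L, 0.23 without vehicle J and 0.20 without R33 K. Without vehicle J the medians of the glucocorticoid and heat shock lists were 0.01 and 0.13.

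Of the glutamate receptor genes, few were lower at unadjusted p under 0.05, where 1.22% of all tested genes were lower. Grin2b, the GluN2B subunit of the NMDA receptor (chr6:135690231-136150548 in GRCm39), measured 17.9, 31.4, 24.7 and 25.2 FPKM after vehicle and 15.6, 15.3, 18.9 and 10.6 FPKM after R33. Vehicle J lay under R33 N, while the other vehicle libraries stood above all R33 libraries and R33 AD was lowest (log2 fold change -0.68, SE 0.18, 95% interval -1.07 to -0.29). All 6 tested NMDA receptor subunits had negative log2 fold changes, with a median of -0.13 (-0.25 without R33 N, -0.04 without R33 K), and Grin2b was the 1 at unadjusted p under 0.05, with 3 without vehicle J and 2 without vehicle M. Gria1, the GluA1 subunit of AMPA receptors, measured 98.3, 156, 71.8 and 54 FPKM and 55.7, 57.4, 89.5 and 49.2 FPKM. Vehicle M was far above the rest and vehicle AH among the lowest, so the groups overlapped (log2 fold change -0.51, 95% interval -1.20 to 0.17). Of 16 AMPA receptor and partner genes, Shisa7 alone was at unadjusted p under 0.05, with a log2 fold change of -0.32 (SE 0.13), and the list median was -0.08 (-0.01 without vehicle L). No gene of this list was without R33 K, vehicle L or R33 AD, and 4 were lower without vehicle AH. It was 0 in the fit over all 27 libraries and 2 over mice with 1-letter labels. Of 12 metabotropic and kainate receptor genes, 0 were at that threshold (1 without R33 N), with a median of -0.03. That median was -0.14 without vehicle M and 0.003 without vehicle L.

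Of 23 tested genes on a list of calcium channels and release, which also holds Calm2 and Atp2b2, 5 were lower at unadjusted p under 0.05. On that list 0 were higher, and the median was -0.13. Over all tested genes 1.22% were lower, and 101 of the 1297 longest ones, while the median length of this list was 8228 bp. The 5 lower genes were Cacna1e, Cacna1h, Cacna1c, Ryr2 and Ryr3, the last named after its values were seen. Cacna1e, which forms the R-type channel, measured 14.9, 16.2, 17 and 12.8 FPKM after vehicle and 9.57, 10.2, 13.5 and 5.59 FPKM after R33. R33 N was above vehicle AH and R33 AD was lowest of all (log2 fold change -0.65, SE 0.20). Ryr2, the ryanodine receptor that releases calcium from the endoplasmic reticulum, measured 9.26, 13.8, 13.6 and 12.2 FPKM and 8.92, 9.25, 8.75 and 7.42 FPKM. All R33 libraries lay below all vehicle libraries, but R33 O and vehicle J were nearly equal (log2 fold change -0.45, SE 0.15). With the length trend removed, 2 of the 23 were lower at unadjusted p under 0.05 and the median was -0.02. Cacna1h then had a log2 fold change of -0.42 in place of -0.51, and Cacna1c of -0.06 in place of -0.27, neither at that threshold. The lower count was 3 without R33 K, without R33 AD or over mice with 1-letter labels. The median ran from -0.20 without vehicle J to -0.06 without R33 AD.

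Of 24 axon guidance genes, 7 were lower and 1 higher at unadjusted p under 0.05 (1.22% and 1.74% of all tested genes), with a median of -0.13 (-0.08 without vehicle J). Plxna4, a semaphorin co-receptor, measured 9.79, 14.8, 11.2 and 10.6 FPKM after vehicle and 8.95, 8.23, 8.74 and 6.56 FPKM after R33. The groups were apart, with vehicle M highest (log2 fold change -0.46, SE 0.15). Sema5a, a transmembrane semaphorin, measured 5.53, 5.08, 6.07 and 4.95 FPKM and 4.46, 3.31, 3.70 and 2.56 FPKM, also without overlap (log2 fold change -0.52, SE 0.21). Dcc, the netrin receptor, measured 2.61, 2.79, 2.59 and 1.87 FPKM and 1.89, 1.73, 2.33 and 1.38 FPKM, where vehicle AH was as low as R33 K (log2 fold change -0.29, SE 0.11). Sema3a, named after its values were seen, was the 1 higher gene, with a log2 fold change of 0.30 (SE 0.12), and no gene was higher at that threshold under median-of-ratios scaling, in the fit over all 27 libraries or without vehicle J, R33 K, vehicle M, R33 O or R33 N. The lower count was 4 without R33 K, vehicle M or R33 O, 3 without vehicle L, 2 without R33 AD, 2 with the length trend removed, 2 in the fit over all 27 libraries and 4 over mice with 1-letter labels, where 2 were higher. Among 19 postsynaptic scaffold genes 1 was lower (Lrrc7), and among 24 presynaptic genes 1 was lower (Pclo), with medians of -0.11 and 0.00 (-0.02 under median-of-ratios scaling). The scaffold count was 0 without R33 O or R33 AD, 2 without vehicle L and 3 without R33 N, and the presynaptic one 0 without vehicle L or R33 AD and 3 without vehicle M. With the length trend removed both lists had 0 lower and 1 higher, and over mice with 1-letter labels both had 0. The scaffold count was also 0 in the fit over all 27 libraries.

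Gene length separated the higher from the lower genes. The median length was 3149 bp over all tested genes, 2488 bp for the 226 higher genes and 8924 bp for the 158 lower genes. Of 10 equal classes by length, the longest, from 6840 to 31327 bp, held 101 of the lower genes and 5 of the higher ones, and the median log2 fold change ran from 0.07 in the shortest class to -0.08 in the longest. Across the 12976 genes, which are not independent replicates, the Spearman correlation of log2 fold change with length was -0.30. It was -0.09 without R33 AD, -0.43 without R33 K and -0.40 without vehicle J.

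The trend also differed between libraries of 1 group. Relative to the mean of the 8 libraries, the median log2 value of R33 AD was 0.17 in the shortest class and -0.18 in the longest. In vehicle M, L and AH it was -0.11, -0.13 and -0.11 in the shortest class and 0.05, 0.07 and 0.07 in the longest. Vehicle J, at 0.25 and -0.01, was high in the shortest class as R33 AD was, but did not fall as AD did in the longest. Without R33 AD, 230 genes were higher and 73 lower at unadjusted p under 0.05, and 56 of the 158 lower genes were among the 73. With the trend of expression on length removed from each library, 281 genes were higher and 89 lower, 75.9% higher against 58.9%, and 60 of the 158 lower genes remained. Grin2b then had a log2 fold change of -0.36, Cacna1e of -0.47, Ryr2 of -0.21 and Vps13d of -0.13, and the values of Coch (0.79) and Nr1d2 (0.47) were close to those above. The study states an RNA integrity number above 8.5 for every sample and gives none per library, so the part of RNA quality or library preparation in this trend was not tested.

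**Figure D4:**
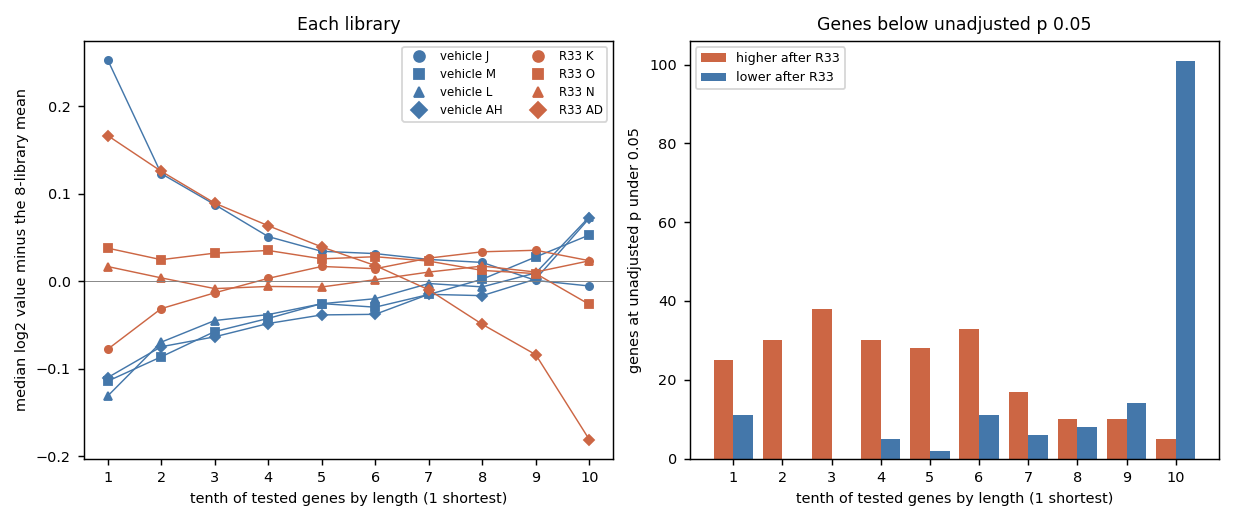
Left, the median log2 value of each library minus the 8-library mean (vertical axis) in 10 equal classes of tested genes by length (horizontal axis), vehicle in blue and R33 in orange. Right, the number of genes at unadjusted p under 0.05 in each class, where the longest holds 101 of the 158 lower genes; R33 AD falls from 0.17 to -0.18 across the classes.

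GABA-A receptor subunits went both ways, with 2 higher and 1 lower of 12 at unadjusted p under 0.05 (1.74% and 1.22% of all tested genes) and a median of 0.12 against 0.03 over all genes. Gabrd, the delta subunit of extrasynaptic receptors, measured 20.3, 28.9, 35.6 and 41.1 FPKM after vehicle and 48.9, 44.6, 31.1 and 47.6 FPKM after R33. Vehicle J was lowest, and R33 N lay among the vehicle libraries (log2 fold change 0.46, SE 0.20). Gabrb1, the beta1 subunit, measured 14.5, 12.6, 14.2 and 12.9 FPKM and 9.67, 10.2, 13.4 and 7.94 FPKM, with R33 N inside the vehicle range and a log2 fold change of -0.38 (SE 0.13). The 2 higher subunits became 0 without R33 K or R33 O and under median-of-ratios scaling, 3 without R33 AD, and 1 without vehicle J, vehicle M, R33 N or vehicle AH. The 1 lower subunit became 2 without R33 N or vehicle AH, and 0 with the length trend removed or over mice with 1-letter labels. In the fit over all 27 libraries 0 were higher and 0 lower, and over the 8 compared libraries 1 and 1. The median was -0.01 without vehicle M.

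Interneuron markers had 3 higher and 1 lower of 25 tested genes at unadjusted p under 0.05 (1.74% and 1.22% of all tested genes), with a median of 0.13 (0.05 without vehicle M). In a block of bulk cortex, fewer cells of a type and less RNA per cell cannot be told apart. Pvalb, the calcium buffer of fast-spiking interneurons, measured 34.8, 57.2, 38.5 and 64.5 FPKM after vehicle and 84.8, 70.6, 43.8 and 94.8 FPKM after R33. R33 N lay among the vehicle libraries and AD was highest (log2 fold change 0.57, SE 0.24). Crh, the corticotropin-releasing hormone that some cortical interneurons make, measured 3.59, 3.57, 3.98 and 3.98 FPKM and 4.91, 4.67, 5.45 and 4.83 FPKM. All R33 libraries exceeded all vehicle libraries, at a low level and with little spread in either group (log2 fold change 0.32, SE 0.09). Nos1, the neuronal nitric oxide synthase, measured 12.2, 7.06, 8.09 and 4.46 FPKM and 3.07, 4.06, 8.44 and 3.34 FPKM, overlapping through R33 N (log2 fold change -0.66, SE 0.27). The 3 higher markers became 1 without R33 AD and 5 without vehicle AH. The 1 lower marker became 0 without vehicle J, R33 K, R33 O, vehicle L or R33 AD, 2 without vehicle M and 3 without R33 N. With the length trend removed 0 were lower, and over the 8 compared libraries 1 was higher and 0 lower.

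Genes enriched in striatum had a positive median. Pdyn, the precursor of dynorphin, measured 7.11, 5.37, 11.5 and 10.3 FPKM after vehicle and 11.9, 12.7, 12 and 11.8 FPKM after R33, without overlap but close to vehicle L (log2 fold change 0.51, SE 0.19). Of 15 tested striatal genes 2 were higher at unadjusted p under 0.05, Pdyn among them (1.74% of all tested genes), and the median of the list was 0.24, or 0.13 without R33 K and 0.39 without R33 AD. There was 1 without vehicle M and 0 in the fit over all 27 libraries. The list summed to 172, 136, 143 and 146 FPKM after vehicle and 227, 199, 164 and 162 FPKM after R33, with Ppp1r1b the most abundant and no gene at 0 in all 8 libraries. Where the block was cut and the part of neighbouring tissue were not tested. Of 29 excitatory neuron genes 2 were higher, Rorb and Cplx3, with a median of 0.17 that was 0.11 without R33 K and 0.28 without R33 N. The count of higher genes was 1 without R33 K, vehicle M or R33 O, 4 without vehicle L and 5 without vehicle AH. It was 4 with the length trend removed, over mice with 1-letter labels and in the fits over 8 and 27 libraries. With the smaller pseudocount, with no filter, under median-of-ratios scaling and by voom it was 1. No gene was lower in the fit of 13 libraries. Without R33 N or over the 8 compared libraries 1 was lower, and without vehicle AH 2 were. With only the 6 compared libraries of mice with 1-letter labels, tried after seeing the data, 5 were higher and 2 lower. Cplx3, a complexin of deep-layer and subplate neurons, measured 5.99, 5.91, 3.89 and 8.29 FPKM and 8.63, 8.46, 10.4 and 13 FPKM, with every R33 library above every vehicle library (log2 fold change 0.68, SE 0.21).

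Activity-dependent genes varied widely between mice of both groups. Arc, which remodels synapses after activity, measured 22.2, 67.4, 66.3 and 55.9 FPKM after vehicle and 49.6, 34, 20.5 and 174 FPKM after R33. R33 AD was the highest and R33 N the lowest of all 8 libraries, for a log2 fold change of 0.03 whose 95% interval ran from -1.07 to 1.14. Without R33 AD the log2 fold change of Arc was -0.56, without vehicle J -0.33, and without R33 N 0.45, the highest of the 8 omissions. The 27 tested immediate early genes had a median of -0.00, or -0.15 without vehicle J. It ran from -0.19 without R33 AD to 0.15 without R33 N. Of the 27, 1 was lower and 0 higher at unadjusted p under 0.05 (1.22% and 1.74% of all tested genes). The 1 was Nr4a3, an orphan nuclear receptor, which measured 6.49, 9.57, 5.27 and 5.69 FPKM and 3.99, 2.75, 5.00 and 4.64 FPKM, all R33 libraries below all vehicle libraries (log2 fold change -0.60, SE 0.25). No gene of the list was lower without R33 K, vehicle M or R33 O, 3 were without vehicle AH, and 1 was higher without vehicle J, R33 N, vehicle AH or R33 AD. With the length trend removed, with no filter and in the fit over all 27 libraries 0 were lower, and over mice with 1-letter labels 2 were. With vehicle J and R33 AD both left out, a pair chosen after seeing the data, 9 were lower and 1 higher.

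Microglial lists had no gene past the unadjusted threshold in the fit of 13 libraries. All 20 homeostatic microglia markers had negative log2 fold changes with a median of -0.15, and 0 were at unadjusted p under 0.05. The median ran from -0.25 without vehicle L to -0.05 without R33 K, and was -0.06 without vehicle J. That list summed to 1464, 1181, 989 and 1289 FPKM after vehicle and 836, 1310, 991 and 1314 FPKM after R33, so R33 K was lowest and vehicle J highest, with the other 6 libraries between. The 22 disease-associated microglia genes had a median of -0.13, the 32 interferon and antigen presentation genes -0.12, and the 24 cytokine and NF-kB genes -0.04, each with 0 genes at that threshold. Without R33 K these medians were -0.01, -0.06 and -0.01, and without R33 O -0.23, -0.18 and -0.09. Without vehicle J they were -0.05, -0.05 and -0.01. Over mice with 1-letter labels 4 interferon and antigen presentation genes and 1 cytokine gene were lower. With only the 6 compared libraries of such mice, a fit tried after seeing the data, these were 10 and 1. Without R33 O 1 disease-associated and 1 cytokine gene were lower, without R33 AD 1 cytokine gene, and without R33 N 1 interferon gene was higher. Cd74, the invariant chain of MHC class II, was the lowest of the interferon list, at 8.86, 8.96, 14.8 and 10.6 FPKM and 4.32, 9.33, 4.37 and 10.7 FPKM. R33 K and N were low and R33 O and AD lay within the vehicle range (log2 fold change -0.60, SE 0.38).

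Other glial and vascular lists had few genes at that threshold, where 1.74% of all tested genes were higher and 1.22% lower. Astrocyte markers (20) had a median of 0.13 and oligodendrocyte markers (20) of 0.22, with 0 genes at unadjusted p under 0.05. The myelin list ran from 832 FPKM in vehicle L to 3247 FPKM in vehicle M, with the R33 libraries at 2093, 2465, 1776 and 1868 FPKM between them. Its median was -0.10 without vehicle L and 0.52 without vehicle M, where 5 genes were higher at that threshold. Reactive astrocyte genes had 1 lower of 22 (Amigo2) and a median of 0.01, and oligodendrocyte precursor genes 0 of 10 and -0.11. Endothelial genes had a median of -0.01 and mural cell genes of -0.11, with 0 of 20 and 0 of 15. Of 18 fibroblast and meningeal genes 1 was higher, Igfbp2, an IGF-binding protein, which measured 43.9, 12.2, 16 and 19.7 FPKM and 35.8, 45.2, 26.7 and 33.9 FPKM. Vehicle J lay within the R33 values (log2 fold change 0.75, SE 0.31), and no gene of the list was higher without R33 K, vehicle M, R33 O, vehicle L or vehicle AH. Hippocampal and thalamic genes had 1 lower of 18 (Amigo2, shared with the reactive list) and a median of -0.12, and red cell genes 0 of 3 and 0.10. Without vehicle J, 3 choroid plexus, 3 hippocampal and thalamic and 2 astrocyte genes were higher. Without R33 AD 2 reactive astrocyte genes were lower, without vehicle L 2 precursor genes, without R33 O 2 mural cell genes, and without R33 N or vehicle AH 2 hippocampal and thalamic genes. With the length trend removed 2 reactive astrocyte genes and 1 astrocyte gene were lower, and over the 8 compared libraries 2 mural cell genes and 1 precursor gene. Over mice with 1-letter labels no fibroblast gene was higher, and 2 reactive astrocyte genes were lower. The choroid plexus list had 1 higher gene in the fit over all 27 libraries, and 10 with vehicle J and R33 AD both left out. The medians of the astrocyte, reactive astrocyte, endothelial, fibroblast, choroid plexus, hippocampal and red cell lists turned in sign with at least 1 library left out.

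Housekeeping complexes had log2 fold changes near 0. All 76 tested nuclear oxidative phosphorylation genes and all 31 proteasome genes had positive log2 fold changes, with medians of 0.09 and 0.08 and 0 genes at unadjusted p under 0.05. These are short transcripts, with median lengths of 832 bp and 1436 bp, and their medians with the length trend removed were 0.05 and 0.05. Without vehicle J, 7 of the 76, 3 of the 31 and 4 of 29 autophagy genes were higher at that threshold. The medians of the 76 and the 31 were then 0.19 and 0.12, and without R33 AD 0.04 and 0.05. The 79 cytosolic ribosomal protein genes had a median of 0.02, the 32 lysosomal genes 0.03, the 29 autophagy genes 0.07, the 27 cholesterol synthesis genes 0.01 and the 6 cell cycle genes -0.02, with 0 genes at unadjusted p under 0.05 in each. The medians of the ribosomal, lysosomal, cholesterol and cell cycle lists turned in sign under several alternatives each.

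The 2 lowest log2 fold changes of all tested genes belonged to very short noncoding RNAs. Scarna2, a small Cajal body RNA, had -1.35 (SE 0.32), from 5, 5, 3 and 2 fragments after vehicle and 2, 0, 0 and 1 after R33. Mir377, a microRNA precursor, had -1.08 (SE 0.29), from 3, 2, 6 and 3 fragments and 3, 0, 0 and 1. A library of polyadenylated RNA measures such precursors poorly, and these values rest on 0 to 6 fragments per library.

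The effect of R33 in the contralateral cortex was set beside its effect in the injected cortex, fitted over all 27 libraries with 5 R33 and 4 vehicle injected libraries. The difference between the hemispheres had 0 genes (0%) at an adjusted p under 0.05 by limma with Benjamini-Hochberg adjustment and 49 genes (0.378%) at an unadjusted p under 0.05, 39 higher and 10 lower. The hemispheres compared come from the same mice, and with the mouse as a block the count was 124 genes, 64 higher and 60 lower. The block fit leaves out R33 AE, which has no contralateral library, and without AE the unpaired count was 30. The count of 49, from the fit without the block, became 26 without R33 O, 160 without R33 N and 110 without R33 AD. Coch, Ddit4l and Mat2b were named for their small contralateral p, a choice that favours a larger value contralaterally than in the injected cortex. Coch had a log2 fold change of 0.81 contralaterally and 0.08 (SE 0.34) in the injected cortex, with a difference of 0.73 (SE 0.41). For Ddit4l the values were 0.80 and 0.06, and the difference was 0.74 (SE 0.32). Mat2b had 0.40 and 0.04, with a difference of 0.36 (SE 0.20). Phyh had 0.29 in both, with a difference of 0.00 (SE 0.14), and Tsc22d3 had 0.50 and 0.34, with a difference of 0.16 (SE 0.16). The contralateral and injected values of Vps35 were 0.06 and 0.05, with a difference of 0.00 (SE 0.13). With the mouse as a block these differences were 0.60 (SE 0.37) for Coch, 0.70 (SE 0.30) for Ddit4l, 0.27 (SE 0.18) for Mat2b, -0.05 (SE 0.12) for Phyh, 0.15 (SE 0.13) for Tsc22d3 and -0.02 (SE 0.10) for Vps35.

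**Figure D5:**
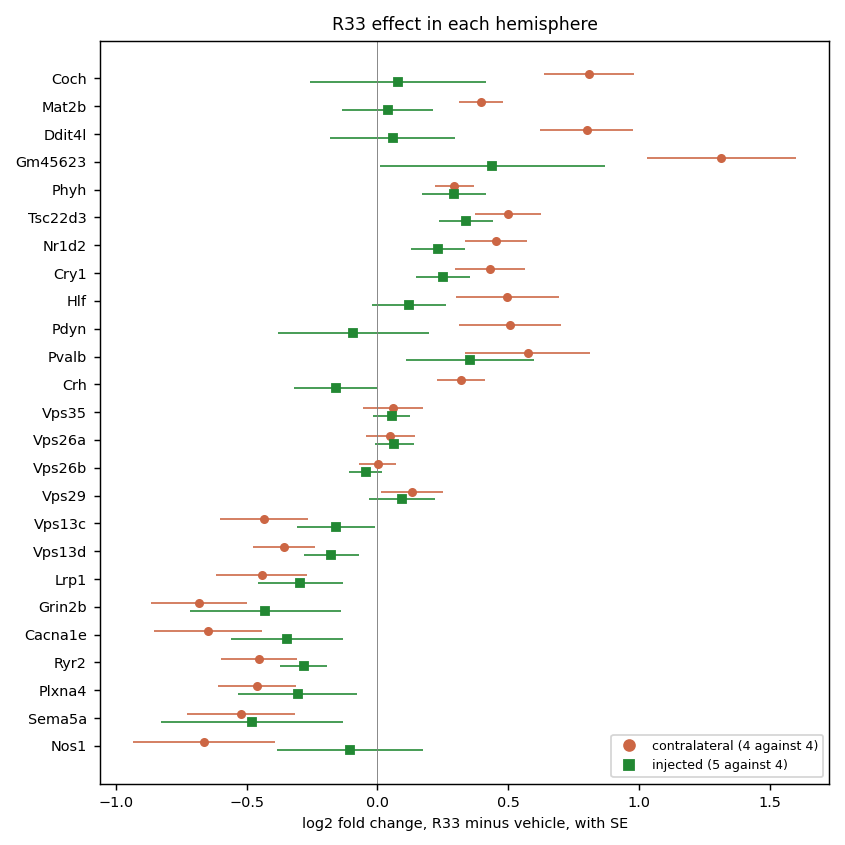
Log2 fold change of R33 minus vehicle with its SE (horizontal axis) for 25 genes, contralateral cortex in orange (4 against 4 libraries) and injected cortex in green (5 against 4 libraries). Coch, Mat2b and Ddit4l, named for their contralateral p, lie near 0 in the injected cortex. Phyh, Vps35 and Sema5a lie at the same place in both.

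R33 and R55 were given at the same concentration and time, so their contralateral libraries (4 and 5) were compared directly. The contrast of R55 minus R33 had 0 genes (0%) at an adjusted p under 0.05 by limma with Benjamini-Hochberg adjustment, and 264 genes (2.03%) at an unadjusted p under 0.05, 186 higher and 78 lower after R55. This count ran from 79 without R33 K to 939 without R33 AD, and was 86 without R33 N, 135 without R55 AA, 566 without R55 R and 790 without R55 P. Coch differed by -0.20 between the compounds (95% interval -0.55 to 0.14), Ddit4l by -0.17 (-0.53 to 0.20) and Grin2b by -0.16 (-0.54 to 0.21). Vps35 differed by -0.10 (-0.33 to 0.14). Gm45623 was lower after R55 than after R33, by -0.72 (-1.31 to -0.14), and Dcc by -0.27 (-0.50 to -0.04), both without passing the adjusted test. Coch, Ddit4l and Gm45623 were named for high values in these same R33 libraries, a choice that favours a lower value after R55. These intervals bound the difference and do not show that the compounds act alike. Against the vehicle libraries that both compounds share, the log2 fold changes of Coch were 0.81 for R33 and 0.61 for R55, those of Nr1d2 0.45 and 0.41, those of Grin2b -0.68 and -0.84, and those of Vps13c -0.43 and -0.55.

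The libraries are stranded, but the counting step and its strand setting are not given in the sources used here. Whether reads of genes that overlap on opposite strands were separated is therefore unknown. This holds for Vps35 and Orc6, Vps29 and Fam216a, Vps26b with Thyn1 and Ncapd3, Vps13b and Cox6c, Vps13c and C2cd4a, Gabrb1 with Gabra4 and Commd8, and Hlf and Mmd. It also holds for noncoding genes annotated across many of the others, such as Grin2b and Plxna4. Mir377 overlaps Mirg, Scarna2 overlaps Gm65135 and Grin2b overlaps Gm65988 on the same strand, where a strand setting would not separate them.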

How the data were processed

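Stranded mRNA libraries were sequenced on a NextSeq instrument and aligned to GRCm39 with HISAT2 by the authors, who deposited FPKM per gene symbol; the counting tool and annotation are not given in the sources used here. Of 32 libraries in the table, 5 matched no sample given here and were not used. FPKM gave whole fragments for 99.995% of values above 0 (tolerance 0.01), and so the depths and gene lengths.

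Tested genes averaged 1 FPKM or more across the 27 libraries and were fitted as log2(FPKM + 1), which understates folds of low genes, with limma 3.58.1 (R 4.3.3, intensity trend, two-sided, Benjamini-Hochberg) over the 13 contralateral libraries, R55 included to share the spread (10 residual degrees of freedom). The contralateral R33 minus vehicle fit, with and without removal of a length trend, was tested on simulated data. These had the same dispersion for every gene, no length trend and no outlying mouse, and the other fits were not simulated. The difference between hemispheres used all 27. In 13 mice with both hemispheres, deviations from group means correlated at a median of 0.454 (-0.0787 to 0.648), and the pairing comes from the mouse letters of the labels. Length trends were removed per library by lowess (span 0.3).

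Alternatives were other samples in the fit, filters, pseudocounts, scaling, limma voom, length and each mouse left out. Members and the 43 lists were chosen with earlier results of these data known (1 list had no tested member). Named genes (161) were the 10 of smallest p per direction, list members with unadjusted p under 0.05 (up to 4 a list) or the highest and lowest fold change, all retromer core, Vps13a to Vps13d and immediate early genes, and 21 genes that the study discusses; the 39 followed through every alternative were picked from these after values were seen. Positions are from GENCODE vM39, promoters from RefSeq.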

Additional observations from a re-analysis of the deposited data

Results flagged for a closer look

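In each group of 4 libraries, the gap between the highest or lowest library and its nearest neighbour was set against the range of the group. Of 164 such groups, over 39 genes, 42 list sums and depth, 10 had a gap past the 5% critical value of Dixon's ratio for 4 values. Chance flags about 1 in 20 groups, and sums and genes that overlap are not independent. The cause was not tested.

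Vehicle J stood apart in 4 of them. It had 1109.31 FPKM of Ttr, where the other vehicle libraries had 6.39 to 18.3, and 1170.87 FPKM over the choroid plexus and ependyma list, against 14.8 to 29.1. Its nuclear oxidative phosphorylation genes summed to 13691.8 FPKM, above 10084 to 10700 in the others, and its Vps13d, at 6.68371 FPKM, was below their 8.17 to 8.46.

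R33 AD had 2.7254 FPKM of Gm45623, below the 6.44 to 7.20 of the other R33 libraries, and 81.1155 FPKM of Phyh, above their 70.7 to 71.7. R33 O had 12.7269 FPKM of Pdyn where the others had 11.8 to 12. R33 K had the lowest sum over APP and its secretases, 3122.74 FPKM against 3510 to 3533. R33 N had the highest sums over the AMPA receptor list, 902.549 FPKM against 782 to 789, and over the metabotropic and kainate receptor list, 199.675 FPKM against 180.0 to 183.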

How the results depend on the processing

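The count of 0 genes at adjusted p under 0.05 between R33 and vehicle (limma, Benjamini-Hochberg; 384 at unadjusted p under 0.05, 0 by voom) held under every alternative but 1. Without the filter on low values 1 gene was called, Gm3787 (adjusted p 0.00163 by limma with Benjamini-Hochberg). Under the other alternatives the smallest adjusted p over the genes tested ran from 0.0666 to 0.9999. That gene had 1 fragment in each R33 library and 0 in each vehicle and R55 library, and was named after its values were seen. The unadjusted count was then 837, and 291 for the difference between hemispheres and 616 for R55 minus R33, where Gm3787 was again the 1 call (adjusted p 0.000934). It was 251 over mice with 1-letter labels with R55 libraries in the fit and 378 without them, the latter tried after seeing the data. Leaving out single mice moved it between 214 (without R33 K) and 1000 (without vehicle J), with 0 adjusted calls. Leaving out vehicle J and R33 AD together gave 922, 738 higher and 184 lower, with a smallest adjusted p of 0.0666 by limma with Benjamini-Hochberg. That pair was chosen after seeing the data, for J's low correlation with the other libraries and AD's trend with gene length.

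With the mouse as a replicate block, the paired fit gave 124 genes for the difference between hemispheres where the unpaired fit gave 49, or 30 without R33 AE, which has no contralateral library and drops out of the block fit. Both had 0 adjusted calls. Single mice left out moved the unpaired count between 26 (R33 O) and 160 (R33 N), and that of R55 minus R33 between 79 (R33 K) and 939 (R33 AD). In each case the cause was not tested.

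Of 819 single-gene values under 21 alternatives, 9 moved by over 1 SD and 22 turned in sign, all in Arc, Ttr, Vps13a, Vps26b and Vps35. Every list count of 1 or 2 moved with at least 1 of the 8 mice left out. With 4 mice a group, 95% intervals reach 0.25 on the log2 scale for the median gene. A fold change of a gene at few fragments, such as Scarna2 or Mir377, depends on the pseudocount.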
